A study of Homo sapiens with 24 samples.

Results

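SK-GT-4 is an established human esophageal adenocarcinoma cell line. The comparison described here is that of SK-GT-4 cells carrying a CRISPR knockout of cGAS (cGAS KO) with SK-GT-4 cells carrying Cas9 alone, both treated with 500 nM reversine for 48 hours. Its members are 6 of the 24 RNA sequencing libraries of the series, 3 of each genotype, chosen by cell line, genotype and treatment with no use of a measured value. The labels put replicates 1 to 3 of every group in batches 1 to 3, so that each batch holds 1 cGAS KO and 1 Cas9 library. The 6 SK-GT-4 libraries given DMSO, the solvent of reversine, and the 6 OE33 libraries given reversine are used for comparison, OE33 being a further esophageal adenocarcinoma line edited in the same way. All SK-GT-4 groups carry Cas9 from a lentiviral vector. The study worked with clones of these cells, and the labels do not name the clone that was sequenced. A difference between the clones and an effect of losing cGAS therefore cannot be told apart in any value below.

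cGAS is an enzyme that binds double-stranded DNA in the cytosol, including DNA of ruptured micronuclei, and makes the second messenger cGAMP. cGAMP activates STING, which through the kinase TBK1 and the factors IRF3 and NF-κB turns on type I interferons, interferon-stimulated genes and inflammatory cytokines. Reversine inhibits MPS1 (TTK), a kinase of the spindle assembly checkpoint, and cells that divide without this checkpoint missegregate chromosomes and form micronuclei. The comparison thus asks how transcription differs with and without cGAS in cells under a drug that makes micronuclei. The guide against CGAS is shown first, because it places the edit within the targeted gene. It matched 1 site on chromosome 6, at chr6:73451711-73451730 of hg38 on the plus strand, in exon 1 of 5 and in the coding sequence, at codon 152. CGAS itself runs from 73413515 to 73452276 on the minus strand in the count table. Capitals mark the PAM that follows the 20 bases of the guide.
CGAS guide site: atccctccgtacgagaatggGGG

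The values are whole-number counts of reads per gene, given here as CPM, the reads of a gene relative to the reads of the library, scaled with TMM factors, and differences are log2 values of cGAS KO minus Cas9 with their standard error (SE). Total counts lay between 17258611 and 23252700 in the 6 libraries, which limits the precision of genes under 1 CPM. The Cas9 reversine library of replicate 2 stood apart. Ribosomal protein genes took 18.7% of its counts, against 5.83% to 11.2% in 10 other SK-GT-4 libraries, and longer genes had lower values in it (Spearman's rho of −0.473 between gene length and deviation, a description across genes). The cGAS KO library of replicate 1 in DMSO shared this pattern, with 17.9% and −0.461, and the pair correlated with each other at 0.937 across genes. In the 10 other libraries this rho lay between −0.174 and 0.493, and it was highest in the cGAS KO reversine library of replicate 2. Length dependence thus also differed among those libraries, and its part in the results was not tested. Because Cas9 replicate 2 stood apart, many of the calls, list counts and list medians that it changed are given without it too. The cGAS KO reversine library of replicate 1 was also unlike its group, with a median correlation across genes of 0.914 with the other cGAS KO libraries and 0.923 with the Cas9 libraries. The share of mitochondrial counts was 1.55%, 2.25% and 3.94% in the Cas9 libraries and 1.64%, 8.56% and 7.83% in the cGAS KO libraries of replicates 1 to 3, and its part in the results was not tested.

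CGAS, the targeted gene, was read first. It had 21.03, 26.1 and 21.8 CPM in the 3 Cas9 libraries and 4.54, 4.80 and 2.30 CPM in the 3 cGAS KO libraries. All cGAS KO libraries lay below all Cas9 libraries, as their labels say. CGAS transcripts fell by 2.60 on the log2 scale (SE 0.31, adjusted p = 0.00121, edgeR's quasi-likelihood test), and by 2.48 without Cas9 replicate 2. In DMSO, the gene had between 15.3 and 20.6 CPM in Cas9 and between 3.56 and 6.19 CPM in cGAS KO. Under reversine, CGAS was the 1 gene called of 15 tested members of a cGAS-STING list. Among all 22782 genes tested, 2.48% rose and 1.99% fell, so this count cannot show that the other members were unchanged. The median difference of the list was 0.08, beside −0.03 over all genes tested. In DMSO, 1 member of the list was called higher and 1 lower. STING1 (TMEM173 in the count table), the receptor of cGAMP, had 10.5, 9.17 and 11.3 CPM in Cas9 and 5.38, 10.3 and 9.63 CPM in cGAS KO, a difference of −0.34 (SE 0.35, adjusted p = 0.636) that was within the spread of the libraries. TBK1 had a difference of 0.26 (adjusted p = 0.677), IRF3 of −0.16 (adjusted p = 0.806) and ENPP1, which hydrolyzes cGAMP, of 0.15 (adjusted p = 0.80).

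Under reversine, 565 genes were higher in cGAS KO than in Cas9 cells and 453 were lower at an adjusted p of at most 0.05, which is 2.48% and 1.99% of the genes tested. Counts of called members of gene lists are to be read beside these shares. Of the 1018 genes, 916 were protein coding. The differences were large, exceeding 4-fold for 249 of the genes that rose and 212 of those that fell. The 3 libraries of one genotype lay wholly above the 3 of the other for 525 of the 565 and 444 of the 453, and among all tested genes this held for 11.1% upward and 11.9% downward. Without Cas9 replicate 2, 576 genes rose (2.53%) and 511 fell (2.24%). Of the first set, 462 of 565 and 364 of 453 were called again, and none changed sign. The numbers depended on single libraries. They were 144 and 136 without Cas9 replicate 3, 272 and 146 without KO replicate 1, 200 and 128 without KO replicate 2, and 168 and 120 without KO replicate 3.

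Several of the genes with the strongest evidence for a rise encode proteins of polarized epithelia. MAL2, which carries cargo across polarized epithelial cells, had 3.15, 2.31 and 3.72 CPM in Cas9 and 255, 217 and 355 CPM in cGAS KO, a rise of 6.49 (SE 0.27, adjusted p = 1.09e-06, edgeR). ESRP1, an epithelial regulator of alternative splicing, rose by 4.87 (SE 0.26, adjusted p = 6.73e-06), from 2.09, 3.17 and 2.75 CPM to 51.1, 96.7 and 91.1 CPM. For both genes the groups were far apart in every batch. POF1B, an actin-binding protein of epithelial junctions, rose by 4.65, GALNT12, an enzyme of mucin-type O-glycosylation, by 3.48, DHRS9, a short-chain dehydrogenase, by 4.56, and the calpain CAPN8, known from mucous cells of the stomach, by 3.72. UNC13D, which primes secretory granules for release, rose by 4.46. IL1R2, the decoy receptor of interleukin 1, rose by 5.13 from no more than 0.485 CPM in Cas9 to at least 8.11 CPM in cGAS KO. IRF8, a factor of interferon and hematopoietic programs, rose by 4.32, from at most 0.519 CPM to at least 7.68 CPM. FAM83A and TC2N rose by 3.36 and 4.16. These 9 genes and both leading ones kept their call without any single reversine library.

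**Figure D1:**
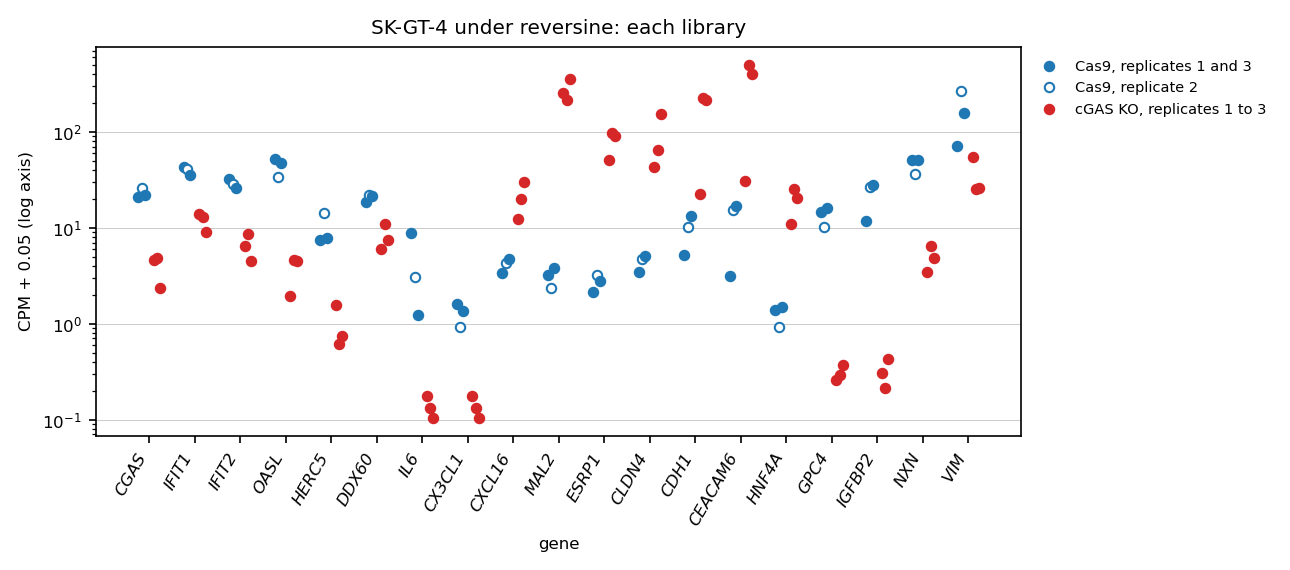
CPM plus 0.05 on a log axis for selected genes in the 6 SK-GT-4 reversine libraries, 1 point per library, with blue for Cas9 (the open circle is replicate 2) and red for cGAS KO. The groups do not overlap for any of the 19 genes drawn, while KO replicate 1 lies well below the other KO libraries for CDH1 and CEACAM6.

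The genes with the strongest evidence for a fall included regulators of growth factors and matrix. GPC4, a cell surface heparan sulfate proteoglycan, had 14.5, 10.2 and 16.2 CPM in Cas9 and 0.21, 0.244 and 0.321 CPM in cGAS KO, and fell by 5.69 (SE 0.41, adjusted p = 5.26e-05, edgeR). IGFBP2, which binds insulin-like growth factors, fell by 6.35 (SE 0.47) from 11.8, 26.3 and 28.1 CPM to 0.252, 0.163 and 0.375 CPM. Both were close to absent from the cGAS KO libraries. SPP1, the secreted phosphoprotein osteopontin, fell by 5.03, and in Cas9 it spanned 10.3 to 43.3 CPM. NXN, a redox protein that binds Dishevelled in Wnt signaling, fell by 3.29 from 50.4, 36.1 and 50.3 CPM to 3.40, 6.38 and 4.76 CPM. CLDN11, a tight junction claudin, fell by 2.59 and PPP2R2B, a regulatory subunit of protein phosphatase 2A, by 4.16. The imprinted noncoding RNA H19 fell by 4.48. CHRDL1, an antagonist of bone morphogenetic proteins, had 391 reads in the Cas9 libraries and 0 in cGAS KO, at least 50.7-fold lower with a floor of 3 reads over the group. AKR1C2, a reductase of steroids with close relatives that could share its reads, fell by 4.14 from 106, 74.9 and 24.5 CPM to 2.65, 5.49 and 1.98 CPM. All of these 9 genes were also called without each single reversine library.

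The same genes were then read in the DMSO libraries, which come from the same knockout and control cells. The libraries compared are other ones than under reversine, but both treatments were fitted together with a shared estimate of the spread. DMSO libraries therefore also affect which genes are called under reversine, and the overlap of both sets of calls is not that of independent tests. The test of the difference between both treatments called 0 of 22782 genes (0%), with 550 genes at an unadjusted p under 0.05. DESeq2 and limma with quality weights likewise called 0 genes. In DMSO, 652 genes were higher in cGAS KO and 463 lower (2.86% and 2.03%). Of the genes that rose under reversine, 403 of 565 were called in DMSO too (71.3%, and 61.8% of the DMSO calls), and all 565 had the same sign. Of the genes that fell, 290 of 453 were called (64.0%, and 62.6% of the DMSO calls), and 452 had the same sign. MAL2 had 1.77, 1.28 and 2.64 CPM in Cas9 and 318, 174 and 328 CPM in cGAS KO in DMSO, and rose by 7.17. GPC4 fell by 4.93 in DMSO, IGFBP2 by 4.49 and ESRP1 rose by 5.50. The genotype difference of these genes was therefore present without reversine.

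**Figure D2:**
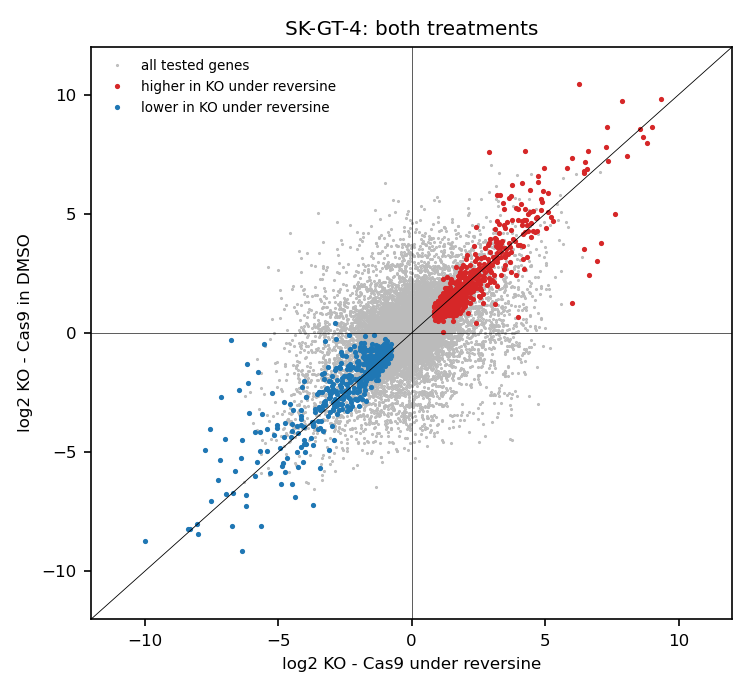
Log2 difference of cGAS KO minus Cas9 in SK-GT-4 under reversine (x axis) against that in DMSO (y axis) for the 22782 genes tested, with the 565 genes called higher under reversine in red and the 453 called lower in blue; the diagonal marks equal differences. Of the called genes, all but 1 have the same sign in DMSO.

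Interferon-stimulated genes encode antiviral effectors that type I interferon or IRF3 turns on. Of 37 tested, 6 fell (IFIT1, IFIT2, OASL, HERC5, DDX60 and RSAD2), none rose and 31 did not pass the test. Among all genes tested, 1.99% fell and 2.48% rose. The median of the list was −0.40, and −0.55 without Cas9 replicate 2, and 24 of the 37 were below 0. Without that library 6 members fell as well, though RSAD2 was not among them. IFIT1 and IFIT2 bind foreign RNA or restrain translation. IFIT1 had 42.9, 41.2 and 35.3 CPM in Cas9 and 13.9, 13.0 and 8.94 CPM in cGAS KO, and fell by 1.76 (SE 0.21, adjusted p = 0.00121, edgeR). IFIT2 fell by 2.19 (SE 0.26, adjusted p = 0.001), from 32.1, 28.8 and 25.9 CPM to 6.47, 8.58 and 4.44 CPM. The 3 libraries of each genotype were tight for both genes and the groups did not overlap. OASL, an OAS-like protein that enhances RIG-I signaling, fell by 3.70 (SE 0.56, adjusted p = 0.00427), from 52.0, 33.8 and 47.3 CPM to 1.89, 4.51 and 4.44 CPM. HERC5, the ligase that attaches ISG15 to proteins, fell by 3.54 (SE 0.52, adjusted p = 0.00364), from 7.41, 14.2 and 7.76 CPM to 1.51, 0.569 and 0.696 CPM. The helicase DDX60 fell by 1.39 (SE 0.24, adjusted p = 0.00829), from 18.7, 21.7 and 21.4 CPM to 5.88, 10.97 and 7.33 CPM, but it was not called without Cas9 replicate 3, KO replicate 1 or KO replicate 3 (adjusted p of 0.0593, 0.0634 and 0.0694). RSAD2, the antiviral enzyme viperin, was low in every library, with 0.621, 1.33 and 0.755 CPM in Cas9 and no more than 0.0813 CPM in cGAS KO, and its fall by 3.78 (adjusted p = 0.0297) was not called without Cas9 replicate 2 (adjusted p = 0.114).

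Other interferon-stimulated genes with high levels did not pass the test. ISG15 had 145, 476 and 145 CPM in Cas9 and 89.4, 57.1 and 75.9 CPM in cGAS KO (adjusted p = 0.152), where Cas9 replicate 2 was the highest library. OAS1, which makes the oligoadenylate activator of RNase L, had 82.2, 63.6 and 113 CPM in Cas9 and 89.7, 99.2 and 141 CPM in cGAS KO, a difference of 0.34 (adjusted p = 0.547), and its groups overlapped. IFI44 (−1.37, adjusted p = 0.06) and DDX58, which encodes RIG-I (−0.84, adjusted p = 0.066), lay just above the threshold. In DMSO, 5 of the 37 genes fell and none rose, with a median of −0.23, so lower levels were also measured without reversine. IFIT1 fell by 1.09 in DMSO, IFIT2 by 1.43, OASL by 3.86 and HERC5 by 2.55. In OE33 under reversine, none of the list fell and 8 members rose, beside 3.27% and 4.71% of the 20426 genes tested there. The difference between both cell lines passed the test for 10 members. For IFIT1 the OE33 difference was 1.53, and SK-GT-4 minus OE33 was −3.28 (SE 0.46, adjusted p = 0.000342). Beside the 2.48% and 1.99% of all SK-GT-4 genes tested, 6 of the 96 tested members of a larger list rose and 7 fell. The study took this list for the interferon alpha response, and its median was 0.05. Without Cas9 replicate 2, 4 of its members rose and 6 fell, with a median of −0.01. With all libraries, its called members ran against each other. IFIT2, OASL, DDX60, RSAD2, GBP4, EPSTI1 and TENT5A fell, and PARP12, CD74, CCRL2, IL7 and SAMD9 were among those that rose. GBP4, an interferon-induced GTPase, had 49 reads in Cas9 and 0 in cGAS KO, at least 5.90-fold lower with a floor of 3 reads over the group. PARP12, an interferon-induced ADP-ribosyltransferase, rose by 1.40, but it was not called without Cas9 replicate 3 (adjusted p = 0.0624). RSAD2, EPSTI1, TENT5A, CD74, CCRL2, IL7 and SAMD9 were named after their values were seen.

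Promoters were looked up next. Of the 6 lower genes, 4 had a promoter in the RefSeq table of GRCh38.p14, and the 150 bases before the start site are printed because these genes fell in the same comparison. The motif searched was GAAA, 2 bases of any kind and GAAA again, a core of the interferon-stimulated response element, on both strands (TTTC, 2 bases and TTTC on the other), with overlapping matches counted, in the 250 bases before the start. Capitals mark it. IFIT1 is at chr10:89392473-89392622 on the plus strand, DDX60 at chr4:168318753-168318902 on the minus strand, HERC5 at chr4:88456969-88457118 on the plus strand, and RSAD2 at chr2:6865735-6865884 on the plus strand.
IFIT1: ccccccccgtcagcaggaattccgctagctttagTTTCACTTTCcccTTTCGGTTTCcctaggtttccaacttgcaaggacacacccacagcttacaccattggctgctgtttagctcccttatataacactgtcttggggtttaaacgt
DDX60: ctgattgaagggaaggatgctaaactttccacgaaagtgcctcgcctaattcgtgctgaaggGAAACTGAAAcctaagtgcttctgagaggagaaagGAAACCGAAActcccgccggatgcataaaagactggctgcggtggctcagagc
HERC5: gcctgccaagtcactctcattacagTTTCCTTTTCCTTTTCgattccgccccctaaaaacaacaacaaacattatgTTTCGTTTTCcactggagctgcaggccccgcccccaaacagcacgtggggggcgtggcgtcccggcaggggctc
RSAD2: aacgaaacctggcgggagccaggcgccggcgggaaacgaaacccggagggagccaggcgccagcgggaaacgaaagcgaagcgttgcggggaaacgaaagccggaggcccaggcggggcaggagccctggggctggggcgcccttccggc
The motif was present in 3 of these 4 promoters, with 2 matches for IFIT1, 2 for DDX60 and 3 for HERC5. It was also present in 12 of 26 matched promoters of members of the list that did not pass the test (46.2%), and in 3.02% of 35116 promoters in the table. Members that fell and members that did not pass the test thus both held it. Only the first listed promoter of each member was searched, whereas the 3.02% covers every listed promoter. Whether RSAD2 or another member holds the motif at a further start site was not looked at.

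Inflammatory mediators moved in both directions. Of 24 cytokines and chemokines tested outside the ligands of CXCR1 and CXCR2, 5 fell (IL6, IL11, CCL2, CCL5 and CX3CL1) and 1 rose (CXCL16), and the median was 0.19. The shares among all genes tested were 1.99% and 2.48%. The same 5 fell without Cas9 replicate 2, while 3 rose (CXCL16, IL18 and CSF2) and the median was −0.17, and in DMSO 3 fell and 3 rose. IL6, the cytokine that signals through STAT3, had 8.70, 3.00 and 1.19 CPM in Cas9 and 0.126, 0.0813 and 0.0535 CPM in cGAS KO, a fall by 5.59 (SE 0.71, adjusted p = 0.00163, edgeR). Its Cas9 libraries differed widely from one another, yet each was above all cGAS KO libraries. In DMSO its Cas9 libraries held 5.06, 0.342 and 0.264 CPM, and it fell by 3.39 there. CX3CL1, the membrane-bound chemokine fractalkine, fell by 3.71 from 1.55, 0.865 and 1.29 CPM to at most 0.126 CPM. CCL2, which attracts monocytes, had 62 reads in the 3 Cas9 libraries and 3 in the 3 cGAS KO libraries, a ratio of 23.7 (95% counting interval 7.75 to 118). CCL5, which attracts T cells, had 73 and 3 reads, a ratio of 27.9 (interval 9.19 to 139). The calls of both CCL2 and CCL5 were lost without Cas9 replicate 3 or any 1 of the KO replicates (adjusted p between 0.051 and 0.122). IL11, a cytokine of the IL-6 family that was named after its values were seen, fell by 1.30 (adjusted p = 0.03). CXCL16, a chemokine for CXCR6-bearing lymphocytes, rose by 2.27 (SE 0.35, adjusted p = 0.00455), from 3.33, 4.27 and 4.69 CPM to 12.4, 19.9 and 30.1 CPM.

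None of the 7 CXCR1/2 ligands, which attract neutrophils and other myeloid cells, passed the test with all libraries. PPBP, a platelet chemokine named after its values were seen, was higher without Cas9 replicate 2 (3.37, adjusted p = 0.0458) and in DMSO (3.49, adjusted p = 0.0263). CXCL8, which encodes IL-8, had 269, 131 and 57.7 CPM in Cas9 and 143, 49.2 and 131 CPM in cGAS KO. The groups overlapped, and its difference of −0.52 (SE 0.65, adjusted p = 0.704) became 0.42 without Cas9 replicate 2 (adjusted p = 0.814). CXCL1 had a difference of −0.51 (adjusted p = 0.544), and CXCL2 of −2.09 (adjusted p = 0.116) at levels of at most 6.08 CPM. The median of the ligands was −0.51 under reversine, −0.08 without Cas9 replicate 2 and 0.81 in DMSO. Their summed level overlapped between the groups, being 313, 152 and 65.3 CPM in Cas9 and 166, 63.2 and 147 CPM in cGAS KO. Of the genes chosen for quantitative PCR, 6 were tested, of which IL6, CCL5 and IFIT2 fell. CXCL10 had 0 reads in all 6 libraries. The study chose these and the following genes on samples of the same kind, so they are not independent evidence of a direction. Of 8 genes that the study named for this response, IFIT2 fell, and IRF1 (−0.37), CHAC1 (0.57), TRIM16 (0.31), ZFAND2A (−0.59), MAP1LC3B (−0.25), CXCL2 and CXCL8 did not pass the test (adjusted p between 0.116 and 0.704). The study chose them by a smaller rise from DMSO to reversine in cGAS KO, which is another measure than the level compared here. It also reported that smaller rise by quantitative PCR for CXCL8, CXCL2 and IFIT2, and for secreted IL-8. The present values therefore do not test its result. Without Cas9 replicate 2, the differences of ZFAND2A and MAP1LC3B were 0.20 and 0.07, with the opposite sign. CHAC1 differed by 2.01 in DMSO (adjusted p = 0.00997). The NF-κB list had 1 rise among 24 genes, BIRC3, an inhibitor of cell death and regulator of NF-κB, which rose by 1.78 (adjusted p = 0.0186). It was not called without Cas9 replicate 3 or any 1 of the KO replicates (adjusted p between 0.0659 and 0.109). The list held 2 rises without Cas9 replicate 2, BIRC3 and BIRC2. A noncanonical NF-κB list of the study had 3 rises and 2 falls among 90 genes, near the 2.48% and 1.99% of all genes tested. Of these TNFSF9, the ligand of 4-1BB, fell by 4.03 (SE 0.51, adjusted p = 0.00163), from 17.1, 10.8 and 17.1 CPM to 0.63, 1.10 and 1.02 CPM. The 19 genes of MHC class I presentation had no call in either direction with all libraries, with a median of 0.40. HLA-B and HLA-F rose without Cas9 replicate 2, where the median was 0.70, and in DMSO 4 rose (HLA-B, HLA-C, HLA-F and TAP2) with a median of 0.90. These genes, IL18, CSF2 and BIRC2 were named after their values were seen.

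With all libraries, the called genes of 3 epithelial lists were higher in cGAS KO, where 2.48% of all genes tested rose and 1.99% fell. Of 14 markers of columnar epithelium tested, ESRP1, CLDN4, CDH1 and EPCAM rose, none fell, and the median was 0.94. Of 22 intestinal and mucous genes, HNF4A, TFF1, MUC13, CEACAM5 and CEACAM6 rose, none fell, and the median was 1.53. Of 18 squamous genes, KRT4 alone rose, a count not far from the share of all genes, none fell, and the median was 0.92. The medians without Cas9 replicate 2 were 1.31, 2.01 and 1.07, with 4 columnar, 7 intestinal and mucous and 2 squamous genes that rose, and 1 squamous gene, SOX2, fell by 0.98 (adjusted p = 0.0226). CLDN4, a tight junction claudin, had 3.42, 4.67 and 5.07 CPM in Cas9 and 42.4, 64.2 and 153 CPM in cGAS KO, and rose by 4.13 (SE 0.33, adjusted p = 0.0001, edgeR). CDH1, which encodes E-cadherin, rose by 3.54 (SE 0.48, adjusted p = 0.00226), from 5.15, 10.1 and 13.2 CPM to 22.2, 224 and 216 CPM. HNF4A, a transcription factor of intestinal and hepatic epithelium, rose by 3.72 (SE 0.52, adjusted p = 0.00282), from 1.33, 0.865 and 1.46 CPM to 10.8, 25.3 and 20.3 CPM. EPCAM, an epithelial adhesion molecule, rose by 1.84 (adjusted p = 0.0268) and by 2.41 without Cas9 replicate 2, in which it was highest among Cas9 libraries with 105 CPM.

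Replicate 1 of cGAS KO was well below the other KO libraries for several of these genes. CEACAM6, a glycosylphosphatidylinositol-anchored adhesion molecule, had 3.06, 15.3 and 16.9 CPM in Cas9 and 30.7, 501 and 401 CPM in cGAS KO, and rose by 4.28 (adjusted p = 0.000116). CEACAM5, which encodes carcinoembryonic antigen, had 0.621, 3.98 and 4.26 CPM in Cas9 and 3.78, 192 and 132 CPM in cGAS KO, so that the groups overlapped, and rose by 4.64 (adjusted p = 0.00721). Reads of CEACAM5 and CEACAM6 could be shared, as the genes are close relatives. CEACAM5 was not called without Cas9 replicate 3 (adjusted p = 0.0593). EPCAM, TFF1, MUC13 and KRT4 each lost their call in at least 3 of the 6 fits without 1 reversine library, with adjusted p of at most 0.16, whereas ESRP1, CLDN4, CDH1, HNF4A and CEACAM6 lost it in none. KRT8 and KRT18, the keratins of simple epithelia, were abundant in both genotypes and did not pass the test. KRT8 had 1465, 3227 and 1696 CPM in Cas9 and 4195, 3011 and 4088 CPM in cGAS KO (adjusted p = 0.288). GRHL2 was near 0 in all libraries, with no more than 0.324 CPM. In DMSO, 6 of the columnar, 9 of the intestinal and mucous, and 5 of the squamous genes rose and none fell. CDH1 rose by 3.53 there and CLDN4 by 4.55.

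**Figure D3:**
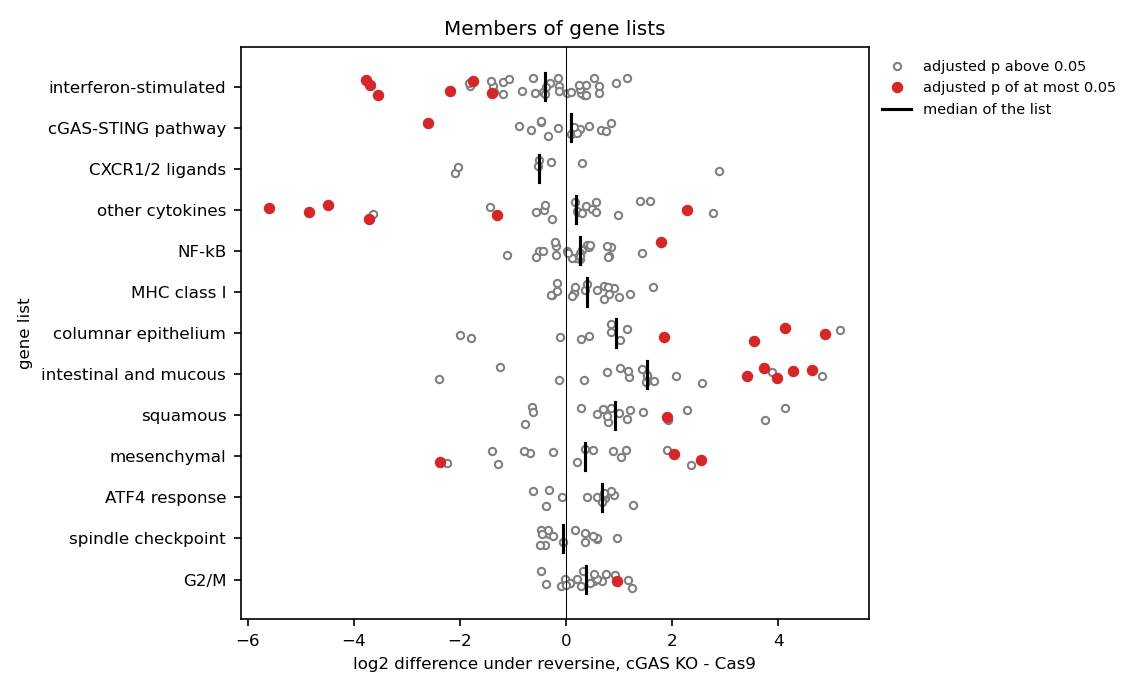
Log2 difference of cGAS KO minus Cas9 under reversine (x axis) for the tested members of 13 gene lists, 1 point per gene, with red for an adjusted p of at most 0.05, open grey for the others and a black bar at the median of the list. The medians of the 3 epithelial lists lie between 0.92 and 1.53, and the called interferon-stimulated genes all lie below 0.

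Mesenchymal genes did not move together. Of 17 tested, MMP1 and MMP10, secreted metalloproteinases, rose, ZEB2, a repressor of E-cadherin, fell, and the median was 0.35. The median was 0.05 without Cas9 replicate 2, where MMP7 also rose and ZEB1 also fell, both named after their values were seen. MMP1 rose by 2.54 (SE 0.38, adjusted p = 0.00423), from 4.92, 7.49 and 7.76 CPM to 20.05, 35.6 and 84.0 CPM. MMP10 rose by 2.03, and lost its call without Cas9 replicate 3 or any 1 of the KO replicates (adjusted p between 0.0683 and 0.138). ZEB2 fell by 2.37 from 2.88, 1.90 and 1.40 CPM to at most 0.61 CPM, and lost its call without any 1 of the 5 reversine libraries other than Cas9 replicate 2 (adjusted p between 0.074 and 0.163). VIM, which encodes vimentin, had 70.6, 267 and 159 CPM in Cas9 and 54.3, 25.2 and 26.1 CPM in cGAS KO, and at −2.25 missed the threshold (adjusted p = 0.0572), although its groups did not overlap. CDH2, which encodes N-cadherin, had a difference of 0.88 (adjusted p = 0.119). Among 14 genes known for their alteration in esophageal adenocarcinoma, ERBB3, a receptor of the epidermal growth factor family, rose by 2.29 (SE 0.28, adjusted p = 0.00138), from 4.30, 5.48 and 4.26 CPM to 12.3, 34.4 and 27.5 CPM, while FGFR2 and CCNE1 fell. FGFR2, a fibroblast growth factor receptor, had 139 reads in Cas9 and 2 in cGAS KO, and its call was lost without Cas9 replicate 3, KO replicate 1 or KO replicate 3 (adjusted p of 0.077, 0.102 and 0.108). CCNE1, which encodes cyclin E1, fell by 1.11, and lost its call without each single library but Cas9 replicate 2 (adjusted p between 0.056 and 0.177). ERBB2 (0.88, adjusted p = 0.26), EGFR (1.45, adjusted p = 0.145), MET (1.14, adjusted p = 0.112) and MYC (−0.46, adjusted p = 0.422) did not pass the test. The median of the list was 0.63, and 0.24 without Cas9 replicate 2.

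Lists closer to the drug itself held calls near the shares among all genes tested, of which 2.48% rose and 1.99% fell. Such counts say little about these lists. Both genotypes received reversine, so the response to the drug is not measured in this comparison. The 15 spindle checkpoint genes had none, with a median of −0.07, the 15 targets of p53 none (0.18) and the 8 genes of the aryl hydrocarbon receptor none (−0.17). Without Cas9 replicate 2, 1 p53 target (TP53INP1, −1.21, adjusted p = 0.0368) and 1 gene of the aryl hydrocarbon receptor (AHRR, −1.66, adjusted p = 0.0184) fell, both named after their values were seen, and AHRR fell in DMSO as well. Of 20 genes of G2 and mitosis, ASPM, a spindle pole protein, rose by 0.97 (adjusted p = 0.0494), and was not called without any single reversine library (adjusted p between 0.0546 and 0.21). The median of that list was 0.38, and 0.11 without Cas9 replicate 2. The 13 genes of the ATF4 stress response had no call (median 0.68), the 12 heat shock genes 1 fall, HSPA1A (−1.01, adjusted p = 0.0476), and the 16 AP-1 and immediate early genes 1 fall, the phosphatase DUSP5 (−1.14, adjusted p = 0.0363). DUSP5 was not called without any single reversine library (adjusted p between 0.0525 and 0.181), nor HSPA1A without any other than Cas9 replicate 1 (adjusted p between 0.0844 and 0.21). HSPA1A shares near-identical sequence with HSPA1B. Markers of other cell types were low. CD3E, MS4A1, FCGR3A and DCN had no read, and PTPRC, the pan-leukocyte marker, no more than 0.163 CPM. The summed level of 10 leukocyte genes was between 10.7 and 35.7 CPM in Cas9 and between 8.74 and 34.6 CPM in cGAS KO, of which CD79A, a chain of the B cell receptor, rose by 4.13 from at most 1.21 CPM to 4.67, 15.1 and 27.6 CPM. The sum of 8 fibroblast genes was between 22.5 and 76.3 CPM in Cas9 and between 9.79 and 76.4 CPM in cGAS KO, and in it THY1 and LUM fell at no more than 6.46 CPM. LUM was not called without any single reversine library, nor THY1 without KO replicate 2 (adjusted p = 0.0546). The 6 endothelial genes had no call and summed to between 11.5 and 13.7 CPM in Cas9 and between 7.31 and 20.4 CPM in cGAS KO. Fewer cells that make a transcript and less of it per cell cannot be told apart in these bulk libraries.

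The genes were then set in the order of their position, because neighbours that differ together are not independent of one another. Over the 13402 genes with a mean of at least 1 CPM on chromosomes 1 to 22 and X, a running median of the difference was taken across 31 neighbouring genes. A run was a stretch of at least 31 genes with a running median 0.25 or more away from the median of all genes. Within each of the 3 batches, its median also had to lie on that side of the median of all genes in the same batch. There were 28 runs, of which 10 were higher in cGAS KO with 1253 genes and 18 lower with 1396 genes. The smallest running median inside a run was 0.25 in size, the largest outside was 0.60 in a stretch shorter than a run, and 1239 genes outside runs reached the threshold. Runs held 9.35% and 10.4% of the genes, but 25.7% of the genes with this expression that rose were in a higher run and 39.4% of those that fell in a lower run. As the runs were chosen on this comparison, these shares are a description. The DMSO difference took no part in the choice, although the DMSO libraries entered the 1 CPM filter and the shared fit. In DMSO the median difference of all 28 runs had the same sign, with a median over genes of 0.50 in higher runs and −0.42 in lower runs. In OE33 under reversine, 13 of the 28 had the same sign, with medians of −0.01 and 0.01. RNA alone was measured, so the number of DNA copies in either clone is not known from these files.

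**Figure D4:**
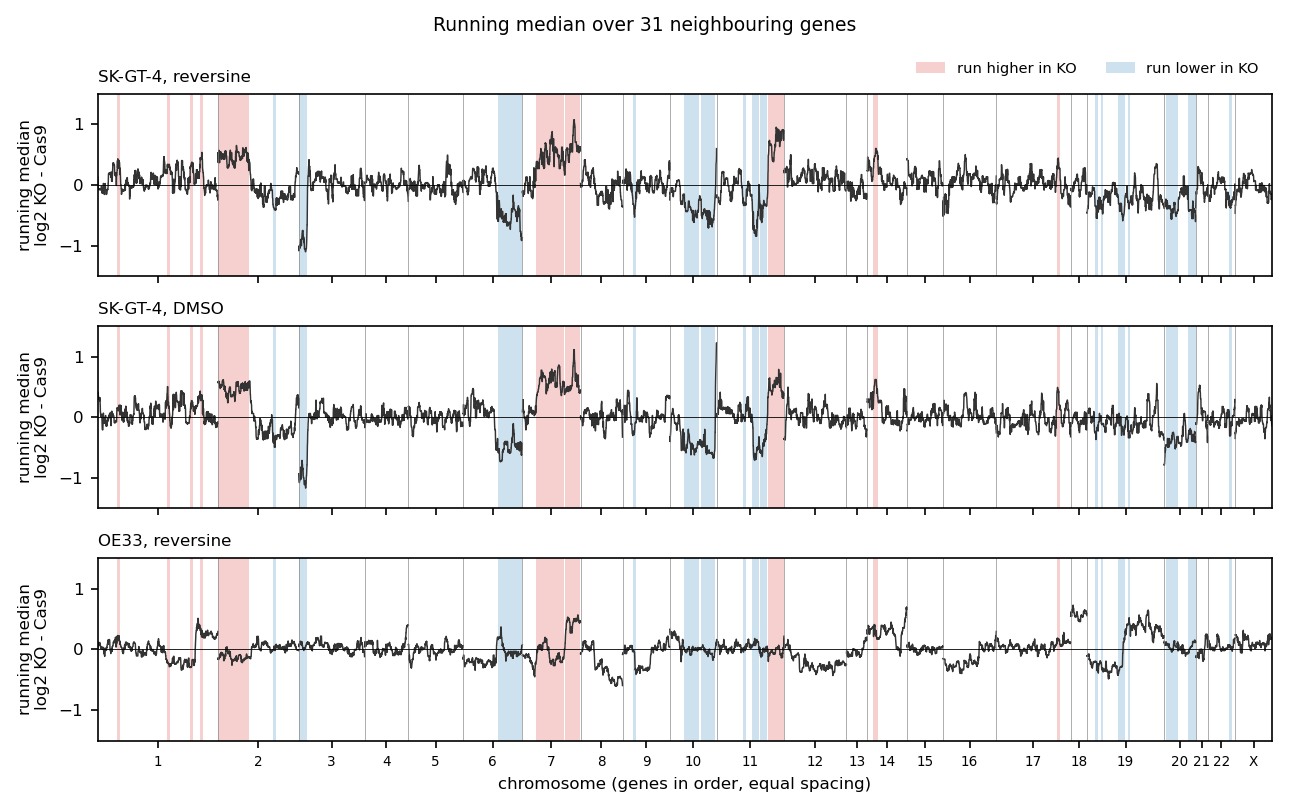
Running median of the log2 difference of cGAS KO minus Cas9 over 31 neighbouring genes, less the median of all genes, along chromosomes 1 to 22 and X in gene order, for SK-GT-4 under reversine, SK-GT-4 in DMSO and OE33 under reversine, with the runs found in the first panel shaded in all panels. Chromosome 3 begins with the lowest stretch in both SK-GT-4 panels, and OE33 does not show it.

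The run furthest from 0 lay at the start of chromosome 3, from 3.13 to 27.6 Mb of GRCh38. Of its 98 genes, 92 (93.9%) were lower in cGAS KO, with a median of −0.99 and quartiles of −1.25 and −0.67, and 37 were called lower. The median was −0.87, −0.89 and −1.04 in batches 1 to 3, −0.95 without Cas9 replicate 2 and −0.99 in DMSO, but 0.07 in OE33. Genes of unrelated function took part. UBE2E2, a ubiquitin-conjugating enzyme, had 71.9, 54.8 and 49.0 CPM in Cas9 and 29.3, 17.7 and 17.0 CPM in cGAS KO, and fell by 1.48 (SE 0.21, adjusted p = 0.00273, edgeR). CRBN, which encodes the substrate receptor cereblon, fell by 1.65 (SE 0.25, adjusted p = 0.00431), from 55.9, 72.2 and 47.2 CPM to 21.5, 18.4 and 16.4 CPM. HACL1, a peroxisomal lyase, fell by 1.60. DPH3, needed for the diphthamide of elongation factor 2, fell by 1.51 (adjusted p = 0.00669) and lost its call without KO replicate 2 (adjusted p = 0.0617). The groups did not overlap for these 4 genes.

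Of the runs with at least 60 genes, 5 were higher in cGAS KO. On chromosome 2 a run of 351 genes from FAM110C, near the chromosome end, to CAPG at 85.4 Mb had a median of 0.48, with 0.47 in DMSO and −0.12 in OE33. In it KCNS3, a subunit of voltage-gated potassium channels, rose by 6.46 (SE 0.32, adjusted p = 3.48e-06), from 0.621, 0.807 and 0.324 CPM to 39.5, 64.3 and 52.9 CPM, and the gastric secreted protein GKN2 rose by 5.84. These rises far exceeded the median of their neighbours, which the choice of the genes of smallest p in the run favours. EPCAM, too, is in this run. On chromosome 7, runs of 321 and 175 genes had medians of 0.50 and 0.62. The first held CLDN4, GUSB, which encodes a lysosomal glucuronidase and rose by 1.70, and COBL, an actin nucleator, which rose by 4.48, but also INHBA, a subunit of activin, which fell by 2.70 from 19.4, 15.9 and 20.5 CPM to 2.61, 3.70 and 2.51 CPM. The second had a median of 0.46 in OE33 as well. It held the ephrin receptors EPHB6 and EPHA1, which rose by 3.63 and 5.31, and PRSS1 and PRSS2, trypsinogen genes whose reads could be shared, which rose by 7.87 and 6.26. EPHB6 rose in OE33 too, by 4.21, and its difference between the lines was −0.65 (adjusted p = 0.674).

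On chromosome 11, a lower and a higher stretch followed each other. From 66.1 to 71.5 Mb, 75 genes had a median of −0.69, with SYT12, a synaptotagmin, falling by 2.87, C11orf86 by 3.63 and CHKA, choline kinase alpha, by 1.37. From 94.4 to 134.4 Mb, 181 genes had a median of 0.71, with 0.51 in DMSO and −0.05 in OE33, and 29 of them were called higher. CADM1, an adhesion molecule of the immunoglobulin family, had 0.0444, 0.115 and 0.162 CPM in Cas9 and 34.2, 81.4 and 91.0 CPM in cGAS KO, and rose by 9.33 (SE 0.62, adjusted p = 2.85e-05). ST14, which encodes the epithelial protease matriptase, rose by 3.33 (SE 0.28, adjusted p = 0.000123), from 9.76, 25.5 and 24.5 CPM to 67.1, 252 and 345 CPM. TMPRSS4, a transmembrane serine protease, had 2 reads over the Cas9 libraries and 1366 over cGAS KO, a ratio of 595 (95% counting interval 164 to 4917), although KO replicate 1 held 0.168 CPM beside 26.9 and 37.5 CPM in the others. MMP1, MMP10 and BIRC3 are in this run as well, and THY1, which fell, is among its 4 called genes that went the other way. On chromosome 14, 60 genes had a median of 0.49, with 0.49 in DMSO and 0.21 in OE33.

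**Figure D5:**
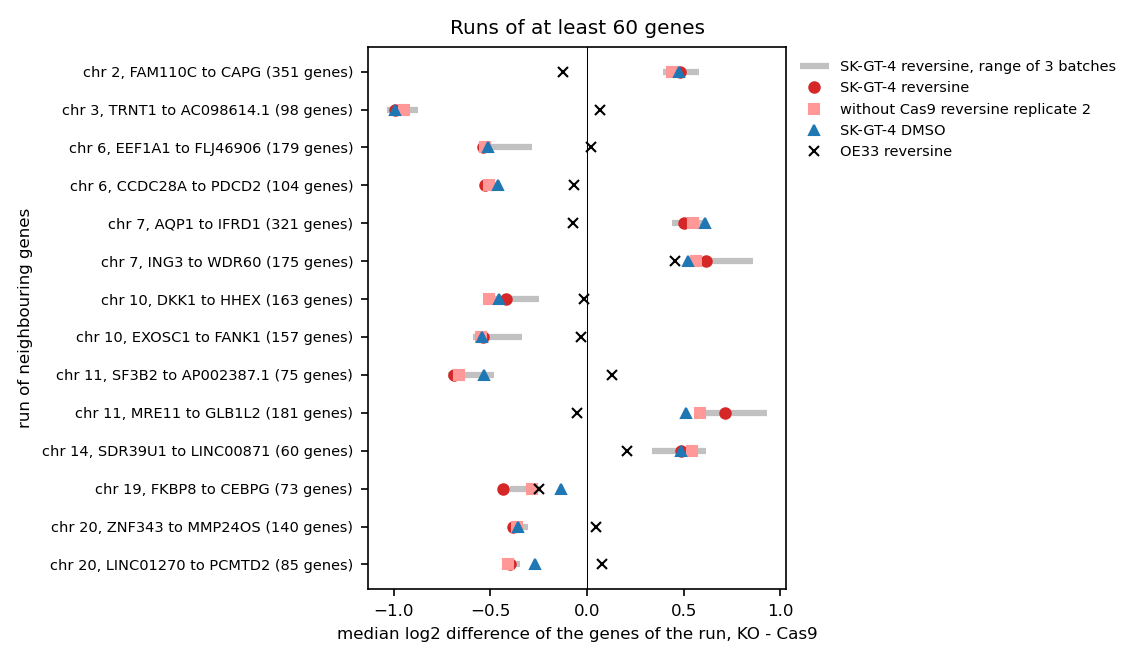
Median log2 difference of cGAS KO minus Cas9 over the genes of each run of at least 60 genes, for SK-GT-4 under reversine with the range of the 3 batches, without Cas9 replicate 2, in DMSO, and for OE33 under reversine. All 14 runs keep their side of 0 in both treatments of SK-GT-4, and OE33 is furthest from 0, at 0.46, for the second run of chromosome 7.

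The other large lower runs lay on chromosomes 6, 10, 19 and 20. On chromosome 10, runs of 163 and 157 genes had medians of −0.42 and −0.54, with −0.45 and −0.54 in DMSO. IFIT1, IFIT2, IFIT3 and IFIT5 are in the first of them, so part of the lower interferon-stimulated genes lay among neighbours that were lower too, while OASL, HERC5, DDX60 and RSAD2 lay outside all runs. IFIT1 and IFIT2 fell by more than the median of that run, which their choice as called genes favours. SNCG, which encodes gamma-synuclein, fell by 4.76 in the first, from 49.0, 158 and 34.5 CPM to 3.03, 2.72 and 2.41 CPM, and ACSL5, which activates fatty acids, by 2.38 in the second. On chromosome 20, runs of 140 and 85 genes had medians of −0.38 and −0.40, and SMOX, spermine oxidase, fell by 2.39 (SE 0.25, adjusted p = 0.00049), from 328, 227 and 139 CPM to 52.7, 35.9 and 37.3 CPM. HNF4A is on this chromosome but outside the runs. On chromosome 19, 73 genes had a median of −0.44 under reversine, −0.28 without Cas9 replicate 2 and −0.14 in DMSO, the weakest repeat of the 14. Their median in OE33 was −0.25, of the same sign. Within this run LRP3, a receptor of the low-density lipoprotein family, fell by 6.19 in SK-GT-4 under reversine, from 19.6, 20.6 and 46.2 CPM to 0.168, 0.65 and 0.428 CPM. The 14 runs of fewer than 60 genes held 31 to 47 genes each. They include those of OTOP2 and OTOP3, neighbouring proton channel genes on chromosome 17 that rose by 4.93 and 3.18, and of LAMB3, a chain of a basement membrane laminin on chromosome 1 that rose by 3.10, from 74.6, 43.5 and 83.7 CPM to 303, 670 and 948 CPM.

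The arm of chromosome 6 that carries CGAS was one of these. The runs began at EEF1A1, at 73.5 Mb, just beyond CGAS on the side of the chromosome end, and went on with 179 and 104 genes to PDCD2 at 170.6 Mb, with medians of −0.54 and −0.53. Of the 285 genes after CGAS, 226 were lower in cGAS KO, with a median of −0.54 under reversine and −0.50 in DMSO, and −0.01 in OE33, where the same gene was targeted. The 391 genes before CGAS had a median of 0.10. The step was not sharp at CGAS, since the 15 genes before it had a median of −0.10 and the 15 after it of −0.15, and that of the 60 genes after it was −0.40. Without Cas9 replicate 2 the medians of these 15 before and 15 after were −0.33 and −0.39, and in DMSO −0.56 and −0.19. Within these runs PLAGL1, an imprinted zinc finger gene, had 335 reads in Cas9 and 3 in cGAS KO, a ratio of 128 (95% counting interval 43.5 to 625), PDE10A, a phosphodiesterase, fell by 3.94, and GJA1, which encodes connexin 43, fell by 1.72 from 165, 143 and 249 CPM to 39.5, 50.9 and 84.0 CPM. WISP3, a secreted matricellular protein, went against its neighbours and rose by 3.49, from 2.44, 1.96 and 0.27 CPM to 16.6, 13.1 and 15.9 CPM.

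In OE33 under reversine, 963 genes were higher and 668 lower in cGAS KO, 4.71% and 3.27% of the genes tested there. That test held 528 of the 565 SK-GT-4 genes that rose and 358 of the 453 that fell. Of the SK-GT-4 genes that rose, 92 of 565 were called higher in OE33 (16.3%, and 9.55% of the OE33 calls) and 23 were called lower. Of those that fell, 25 of 453 were called lower (5.52%, and 3.74% of the OE33 calls) and 19 higher. The genotype difference itself differed between the lines for 521 genes that were higher in SK-GT-4 (2.17% of 24061 tested) and 420 that were lower (1.75%), among them 503 of the 1018 genes called in SK-GT-4. For MAL2 the OE33 difference was −0.16, for ESRP1 −0.23 and for CLDN4 0.49. CGAS fell in OE33 by 3.77, and its difference between the lines of 1.15 did not pass the test (adjusted p = 0.414).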

How the data were processed

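Poly(A) RNA of 24 libraries was sequenced in pairs of 150 bases. The authors deposited raw whole-number counts per gene, made with HISAT2 2.0.5 and featureCounts 1.5.0 on GRCh38. The annotation release and strand setting are not given in the sources used here, so overlapping and antisense genes may share reads. Counts were analysed with edgeR 4.0.16 (R 4.3.3), with TMM scaling and the quasi-likelihood test, on the 12 SK-GT-4 libraries with batch as a block. Of 58735 genes, 22782 were kept, those with 5 or more reads in all and reads in 4 or more libraries. P-values were adjusted by the Benjamini-Hochberg method and called at 0.05. OE33 was fitted in the same way, and both lines together for the difference between them. Ratios of counts carry exact 95% intervals for counting error only. The fits were tested on simulated data.

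The replicate number is the batch in the labels, which pairs the libraries. Deviations of same-batch libraries correlated at 0.139, −0.31 and 0.262, and those of libraries from different batches at between −0.49 and 0.47. These values do not show that same-batch libraries were more alike. The study's methods call the replicates biological. Members and lists were chosen with earlier results of these data known. Named genes were CGAS, STING1, the genes the study named or measured by quantitative PCR, the 12 of smallest p in each direction outside runs with a mean of at least 1 CPM, the 4 of smallest p in each run, and up to 5 called members of each other list. Alternatives were single libraries and batches left out, no block, the reversine libraries alone, DESeq2 1.42.0, limma 3.58.1 voom, other scaling, filters and thresholds, and other settings for runs. Promoters came from RefSeq (GRCh38.p14). Some members of the lists are not reported here.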

Additional observations from a re-analysis of the deposited data

Results flagged for a closer look

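The difference of cGAS KO minus Cas9 under reversine was itself tested between SK-GT-4 and OE33, in 1 fit with edgeR's quasi-likelihood test, and it differed for 521 genes that were higher in SK-GT-4 and 420 that were lower. The values below are SK-GT-4 minus OE33 on the log2 scale for the genes described above that passed at an adjusted p of at most 0.05. Most of them were described because they were called in SK-GT-4, which is 1 term of this difference. Its direction was therefore largely set by that choice, and the values are a description. Both lines were edited and cloned separately, so that line and clone cannot be told apart, and no explanation was tested.

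Several of the named interferon-stimulated genes and mediators were lower in SK-GT-4 by this measure. The first were HERC5 (−4.84), GBP4 (−5.95), OASL (−3.64), IFIT1 (−3.28), IFIT2 (−2.61) and DDX60 (−2.10). The second were IL6 (−6.85), CCL5 (−4.75), TNFSF9 (−3.74), CX3CL1 (−3.48) and CXCL2 (−2.54). CXCL2 did not pass the test within either line. CXCL16 (2.11) and BIRC3 (1.67) were higher.

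Of the epithelial lists, the named genes CEACAM5 (5.96), ESRP1 (5.08), TFF1 (4.04), KRT4 (3.70), CLDN4 (3.62), CDH1 (3.29), CEACAM6 (3.13) and EPCAM (1.85) were higher. In the whole lists, the line difference passed the test for 4 of 14 columnar, 4 of 22 intestinal and mucous and 4 of 18 squamous genes. From the genes with the strongest evidence, FAM83A (7.87), MAL2 (6.64), POF1B (4.98), IL1R2 (4.74), DHRS9 (4.39), TC2N (4.33), UNC13D (4.01), GALNT12 (3.44) and CAPN8 (2.98) were higher. ERBB3 (2.44) and CD79A (4.54) were higher besides.

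Of the genes lower in SK-GT-4 outside the runs, SPP1 (−7.95), IGFBP2 (−7.90), FGFR2 (−7.57), GPC4 (−6.45), NXN (−5.57), AKR1C2 (−5.15) and HSPA1A (−0.98) differed between the lines. Among genes within runs, LRP3 (−9.39), PLAGL1 (−4.66), PDE10A (−3.99), SNCG (−3.51), SYT12 (−2.96), INHBA (−2.58), ACSL5 (−2.46), SMOX (−2.42), DPH3 (−1.94), HACL1 (−1.82), CRBN (−1.66), DUSP5 (−1.43), CCNE1 (−1.26), CHKA (−1.34) and UBE2E2 (−1.34) were lower and TMPRSS4 (9.19), KCNS3 (9.14), PRSS1 (6.15), PRSS2 (4.95), EPHA1 (4.85), WISP3 (4.18), COBL (4.03), ST14 (3.11), LAMB3 (3.07) and GUSB (1.51) were higher. KCNS3 and LRP3 did not pass the filter on low counts within OE33, and PLAGL1, FGFR2, CCL5 and TMPRSS4 had no more than 3 reads in 1 SK-GT-4 genotype and GBP4 none, so that their fitted values depend on the count added before taking logs.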

How the results depend on the processing

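The number of called genes moved with the processing while the direction of the called named genes did not. Of 143 named genes called besides CGAS, 0 changed sign in any of 18 settings, 23 kept their call in all of them and 120 lost it in at least 1. Many of these genes were chosen by their small p in this comparison, and the settings reuse its libraries. Their stable sign is therefore a description and no independent support. Leaving out single reversine libraries gave between 144 and 621 higher genes and between 120 and 511 lower genes. Without KO DMSO replicate 1 there were 1184 and 921, and without it and Cas9 reversine replicate 2 there were 2122 and 1808, both added after seeing the data. Leaving out a whole batch gave 934 and 521 (batch 1), 390 and 303 (batch 2), and 19 and 8 (batch 3). The 6 reversine libraries alone gave 240 and 160, DESeq2 1255 and 1123, limma voom with quality weights 2771 and 2673, and an adjusted p of at most 0.01 gave 185 and 136. At that threshold DMSO gave 250 and 150, and OE33 gave 385 and 195. For these counts, the cause was not tested beyond the fewer samples or stricter threshold that some settings use.

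The batch is the block of the model, and with no replicate block 343 genes were higher and 265 lower, with 29 of the named calls lost, BIRC3 among them. CGAS kept its fall in every setting but 1, where it fell by 2.34 without batch 3 (adjusted p = 0.128). The test between reversine and DMSO gave 0 genes in every setting except that without both libraries that stand apart, which gave 14. These were U2AF1, U2AF1L5, SERF1B, SMIM11A, BOLA2B, EIF3C, AC009299.2, TCEA1P2, MAGEA2, GDF15, CHAC1, KRT16, KRT17 and RASGRP3, named after their values were seen, and several have near-identical copies that can exchange reads.

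Of the named genes, those that turned sign had not passed the test with all libraries. Without Cas9 reversine replicate 2, without batch 2, without both libraries and with limma voom, in that order, ZFAND2A had 0.20, 0.24, 0.15 and 0.082, MAP1LC3B 0.075, 0.0077, 0.05 and 0.081, and CXCL8 0.42, 0.21, 0.57 and 0.89. The value of 0.57 for CXCL8 had an adjusted p of 0.0209 and the others were not called. CXCL2 was called in 3 settings and CHAC1 and TRIM16 in 2 each, with no change of sign. Without single reversine libraries the lowest values were −0.97 for ZFAND2A, −0.40 for MAP1LC3B and −1.08 for CXCL8. CXCL1 had 0.17 with limma voom. With a running median of 0.4 as the threshold, runs held 663 lower and 753 higher genes, and the number of runs lay between 16 and 52 over all settings, the latter without batch 1.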
